A study of Mus musculus with 56 samples.

Results

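Hox genes are homeobox transcription factor genes that stand in 4 clusters, HoxA, HoxB, HoxC and HoxD, each on its own chromosome of the mouse. The genes described here were all genes whose mouse symbol is Hoxa, Hoxb, Hoxc or Hoxd followed by a number alone, which gave 39 of the 53379 genes in the count table, with 11 in HoxA, 10 in HoxB, 9 in HoxC and 9 in HoxD. Antisense and other non-coding genes of the clusters were not counted as members. In the mm10 build HoxA lies on the minus strand of chromosome 6, and the members of HoxB spanned chr11:96194316-96368256, those of HoxC chr15:102921103-103036852 and those of HoxD chr2:74668310-74765142, the last 3 on the plus strand. The number after the letter is the paralogue group, 1 to 13, so that Hoxa10, Hoxc10 and Hoxd10 are the group 10 members of 3 clusters.

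RNA was sequenced from 7 regions of the reproductive tract of male C57BL/6 mice, the testis, the efferent ductules that carry sperm out of it, the initial segment, caput, corpus and cauda of the epididymis, and the vas deferens. Mice were 3 or 21 months old, with 4 mice and 4 libraries in each of the 14 groups of region and age, and the labels give no allele, transgene or treatment. Left and right sides of a mouse were pooled for each region and fat and loose connective tissue were trimmed away, but the tissue was otherwise whole, so fewer cells of a type and less RNA per cell cannot be told apart. The 7 regions of an age came from the same 4 mice, but no source used here says that a replicate number marks one mouse, and the p-values therefore measure the spread between libraries.

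Within a cluster, Hox genes are arranged in the order in which they are used along the head-to-tail axis of the embryo, with low-numbered (anterior) genes active toward the head and high-numbered (posterior) genes toward the tail, a property named colinearity. The proteins bind DNA through the homeodomain, often together with TALE homeodomain partners of the PBX, MEIS and PKNOX families, and many adult tissues keep part of the embryonic pattern. In the embryo the efferent ductules, epididymis and vas deferens form from the mesonephric tubules and the Wolffian duct, and mice without Hoxa10 or Hoxa11 have a vas deferens that partly takes on features of the epididymis.

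The 250 bases before the start of 6 members are printed to show the sequence next to genes with different places along the tract: Hoxa5, highest in the efferent ductules, Hoxb1 and Hoxb8, highest in the initial segment, and Hoxa11, Hoxa13 and Hoxd13, highest in the vas deferens. They come from RefSeq on GRCm38.p6, 5′ to 3′ on the strand of the gene, and capitals mark matches to TTTATG, a core bound by posterior HOX and CDX proteins, or to TGATNNAT, a site shared by PBX and HOX proteins, on either strand. The windows are chr6:52204588-52204837 (minus), chr11:96365508-96365757 (plus), chr11:96281655-96281904 (plus), chr6:52245811-52246060 (minus), chr6:52260881-52261130 (minus) and chr2:74667975-74668224 (plus).
Hoxa5: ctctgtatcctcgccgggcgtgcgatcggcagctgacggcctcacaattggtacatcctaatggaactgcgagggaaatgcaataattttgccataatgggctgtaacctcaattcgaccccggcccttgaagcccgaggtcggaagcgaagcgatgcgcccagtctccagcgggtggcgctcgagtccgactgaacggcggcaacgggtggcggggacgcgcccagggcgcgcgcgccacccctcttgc
Hoxb1: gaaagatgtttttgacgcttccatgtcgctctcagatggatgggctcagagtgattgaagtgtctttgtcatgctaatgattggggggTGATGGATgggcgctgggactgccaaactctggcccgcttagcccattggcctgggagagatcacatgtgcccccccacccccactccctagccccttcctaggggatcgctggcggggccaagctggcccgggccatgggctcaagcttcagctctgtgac
Hoxb8: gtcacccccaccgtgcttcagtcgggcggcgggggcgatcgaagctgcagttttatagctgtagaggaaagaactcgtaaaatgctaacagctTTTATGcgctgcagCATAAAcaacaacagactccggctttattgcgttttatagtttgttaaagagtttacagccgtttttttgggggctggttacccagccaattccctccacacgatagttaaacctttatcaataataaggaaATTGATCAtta
Hoxa11: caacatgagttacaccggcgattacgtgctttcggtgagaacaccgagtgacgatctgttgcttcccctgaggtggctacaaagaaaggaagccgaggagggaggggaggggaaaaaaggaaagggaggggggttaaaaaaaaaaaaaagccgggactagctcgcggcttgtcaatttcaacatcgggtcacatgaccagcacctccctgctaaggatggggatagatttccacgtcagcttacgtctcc
Hoxa13: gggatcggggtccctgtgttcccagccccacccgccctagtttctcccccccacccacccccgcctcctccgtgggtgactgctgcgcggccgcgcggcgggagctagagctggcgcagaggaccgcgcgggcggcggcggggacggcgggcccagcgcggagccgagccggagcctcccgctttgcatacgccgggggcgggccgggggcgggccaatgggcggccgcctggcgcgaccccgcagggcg
Hoxd13: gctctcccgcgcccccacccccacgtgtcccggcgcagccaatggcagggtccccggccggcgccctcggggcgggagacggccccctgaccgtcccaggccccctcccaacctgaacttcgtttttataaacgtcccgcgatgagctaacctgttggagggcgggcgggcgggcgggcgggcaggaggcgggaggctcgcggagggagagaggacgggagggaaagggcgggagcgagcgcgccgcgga
GC content was 80% in the Hoxa13 window and 74.4% in that of Hoxd13, against 52% for Hoxa11 and 44.4% for Hoxb8, and the Hoxa13 window held 35 CpG pairs. The reference held 24 such windows for 22 Hox genes. TTTATG occurred in 5 of the 24 (20.83%) against 10.76% of all 32851 windows, TGATNNAT in 4 (16.67%) against 7.683%, and AGGTCA, a half-site of retinoic acid receptors, in 6 (25%) against 14.02%, with both strands searched. These matches describe letters in a window and were not tied to binding or to expression.

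The libraries held 11125279 to 20561967 counts, of which the 39 Hox genes took 0.0104 to 0.1502%. A nuclear RNA gene, Gm42418, took 49.7% of the counts of caput replicate 2 at 3 months and 1.27 to 36.03% in the other 55 libraries. The markers of each region were highest in the region of that label, but some libraries stood apart on cell type or region markers. Efferent ductule replicates 2 and 3 at 21 months carried initial segment markers at a summed 660 and 262 CPM, against 2.37 to 2.46 CPM in the other two. Cauda replicate 3 at 3 months held 9448 CPM of fibroblast markers against 2313 to 2577 CPM. It also held 1607 CPM of macrophage markers against 327 to 347 CPM, 31.6 CPM of T cell markers against 6.76 to 8.44 CPM and 1249.8 CPM of duct epithelium markers against 2162 to 2254 CPM. Cauda replicate 2 at 21 months had 1240 CPM of duct epithelium markers against 2103 to 2243 CPM. Vas deferens replicate 4 at 21 months had the lowest smooth muscle markers of its group (14356 CPM), the highest T cell markers (54.3 CPM) and the lowest seminal vesicle markers (12.3 CPM). Efferent ductule replicate 3 at 3 months had 234.7 CPM of germ cell markers against 41.9 to 51.4 CPM, and corpus replicate 3 at 3 months had 3186 CPM of fibroblast markers against 1581 to 1734 CPM. Without the libraries of replicate 3, 29 members were called between testis and efferent ductules and 24 between caput and corpus at 3 months, as many as with them. Levels are given as CPM, counts scaled to library size with TMM factors, and a gene was called higher or lower at a Benjamini-Hochberg adjusted p under 0.05 over all genes in edgeR's quasi-likelihood test. A value with its standard error (SE) in parentheses after a pair of regions or ages is the log2 fold change of the second over the first.

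Of the 39 members, 36 reached a mean of 1 CPM in at least 1 group. Hoxb13, a gene used in the prostate and the hindmost body, had 35 counts over all 56 libraries and no group above 0.265 CPM, while Hoxc12 and Hoxc13 had 3 and 7 counts and were not tested between regions. At 3 months 9 members reached 1 CPM in the testis, and the number was 25 for efferent ductules, 26 for initial segment, 26 for caput, 25 for corpus, 28 for cauda and 30 for vas deferens, with 11, 25, 26, 26, 25, 28 and 30 in the same order at 21 months. More of the clusters was therefore detected toward the vas deferens than in the testis.

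**Figure D1:**
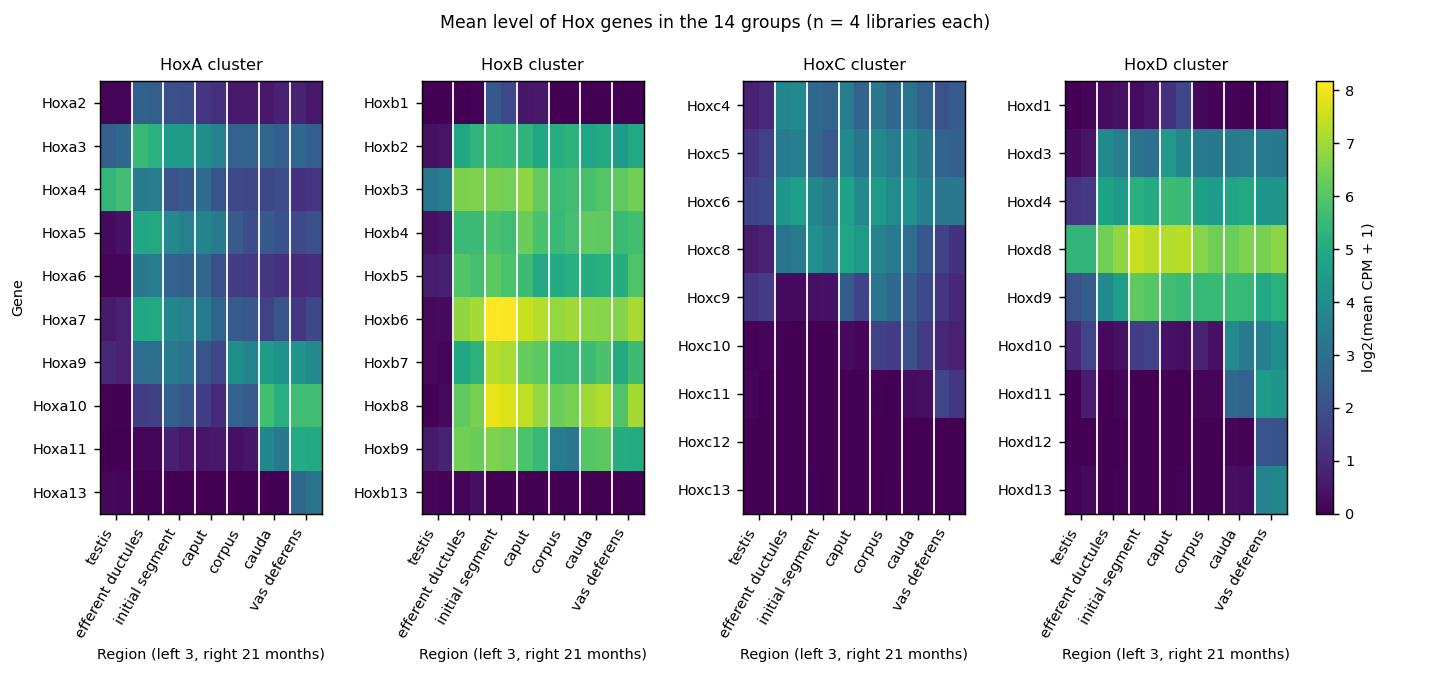
Heat map of the mean level of 38 of the 39 Hox genes, one panel per cluster with genes from group 1 downward and regions across, the left column of each region being 3 and the right 21 months (colour: log2 of mean CPM + 1, n = 4 libraries). Hoxb6, Hoxb7, Hoxb8 and Hoxd8 are brightest in the initial segment, Hoxa4 and Hoxd8 are the brightest 2 in the testis, and the members at the bottom of HoxA and HoxD are bright only at the vas deferens and, for Hoxa10, Hoxa11, Hoxd10 and Hoxd11, the cauda.

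Divided by exon length, so that genes can be compared with one another, the summed level of the members at 3 months was 50.4 ± 3.64 CPM per kilobase in the testis (mean ± SD, n = 4), against 328 ± 24.1 for efferent ductules and a peak of 613 ± 11.95 for initial segment. Further down it was 464 ± 50.1 (caput), 278 ± 22.1 (corpus), 341 ± 64.9 (cauda) and 280.2 ± 4.41 (vas deferens). HoxB made up most of this sum in every duct, from 56.9 ± 1.44% in the vas deferens to 74.3 ± 1.41% in the initial segment, but only 5.62 ± 0.884% in the testis, where HoxA held 54.98 ± 1.73%. Hoxb6 was the highest member per kilobase in each of the 6 ducts at 3 months, with 147 ± 9.30 CPM per kilobase in the initial segment, followed there by Hoxb7 (99.6 ± 4.88) and Hoxb8 (90.3 ± 7.24). In the cauda at 21 months Hoxb8 (55.5 ± 7.77) and Hoxb6 (51.7 ± 16.1) did not differ beyond their spread, and the low Hoxb6 value was that of replicate 2, the library with low epithelial markers.

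The paralogue groups took different shares of this sum in each region. Groups 1 to 4 held 59.7 ± 1.26% of it in the testis at 3 months, but 25.1 ± 0.597% for efferent ductules and 13.3 ± 1.53% for initial segment. Groups 5 to 8 held 74.5 ± 0.984% in the initial segment and 52.7 ± 0.810% in the vas deferens. Groups 9 and 10 went from 12.02 ± 0.716% in the corpus to 22.3 ± 1.29% in the cauda. Groups 11 to 13 held 0.0483 ± 0.0292% in the initial segment, 2.17 ± 0.207% in cauda and 9.995 ± 0.897% in vas deferens, and 7.65 ± 2.09% in the vas deferens of 21-month-old mice, where the 4 libraries ran from 4.86 to 9.51%. The 4 libraries of the vas deferens lay above every library of every other region at both ages for this posterior share.

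**Figure D2:**
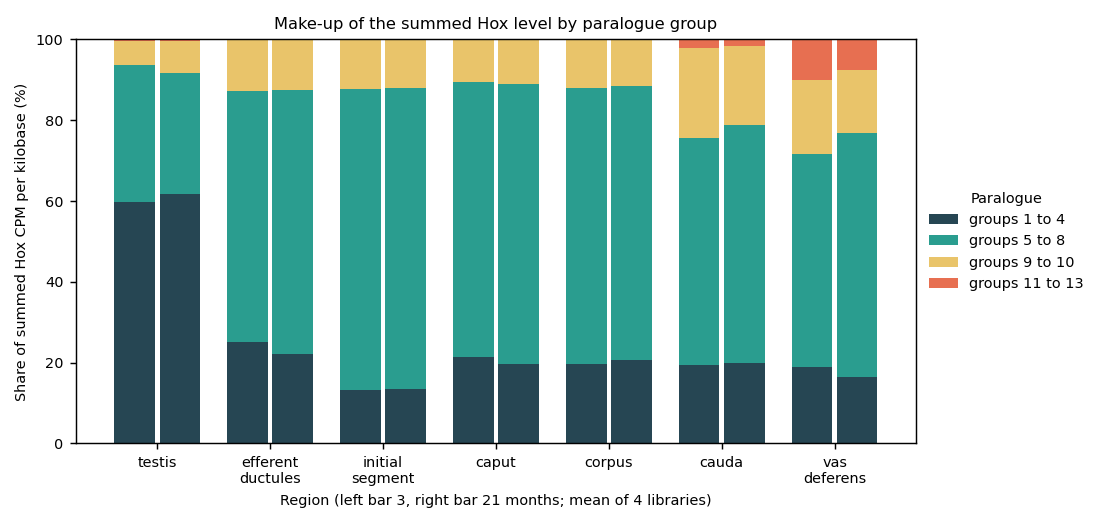
Stacked bars of the share of the summed Hox level (CPM per kilobase, %) held by paralogue groups 1 to 4, 5 to 8, 9 to 10 and 11 to 13 in each region, left bar 3 and right bar 21 months, each the mean of 4 libraries. Groups 11 to 13 are visible as a layer only in the cauda (2.17% at 3 months) and vas deferens (9.995%), apart from a thin layer in the testis (0.398%).

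The testis was the region with the fewest Hox genes, and 3 of them made up most of its level. Hoxa4, which is known from male germ cells, was the highest per kilobase (26.3 ± 2.77), followed by Hoxd8 (14.9 ± 1.32) and Hoxb3 (1.96 ± 0.201). Hoxa4 was at 40.6, 45.8, 45.2 and 36.3 CPM in the 4 testis libraries at 3 months and at 9.23, 9.71, 10.3 and 9.17 CPM in the efferent ductules. The groups did not overlap, and Hoxa4 was lower in the efferent ductules by a log2 fold change of -2.08 ± 0.18 (SE, adjusted p = 1e-11). In the annotation, 16.0% of the exon bases of Hoxa4 are shared with a gene on the other strand, and the strand setting of the counting was not given in the sources used here.

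Most of the clusters was higher in the efferent ductules than in the testis. At 3 months 25 of 37 tested members were higher there than in the testis (67.6%, against 34.8% of all genes tested) and 4 were lower (10.8%, against 40.8%), and the median log2 fold change was 3.54 over the members and -0.08 over all genes. At 21 months 26 were higher (70.3%, against 34.3%) and 5 lower (13.5%, against 40.0%). Of the 29 members called at 3 months, 28 were called in the same direction at 21 months, the other being Hoxa13, a posterior gene at 0.127 ± 0.0552 CPM in the testis. All 11 members of groups 5 to 8 were higher in the efferent ductules at both ages, as were 10 of 12 in groups 1 to 4 and 4 of 7 in groups 9 and 10. Of groups 11 to 13, Hoxb13 was called higher at 21 months, at 0.265 ± 0.235 CPM in the efferent ductules.

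Hoxb8, a gene of the trunk and of blood cell precursors, gave the widest step. It was at 0, 0.0544, 0.0545 and 0.0588 CPM in the testis and 69.5, 77.5, 73.2 and 68.8 CPM in the efferent ductules, a ratio of counts of 1713 (95% interval 586 to 8311) that covers counting error only. Hoxb6 had a log2 fold change of 9.47 ± 0.28 (SE, adjusted p = 1.4e-22) and Hoxb7 one of 7.53 ± 0.29 (SE, adjusted p = 5.6e-20), and neither gene's groups overlapped. Hoxd8 was present in both tissues, at 40.9, 39.95, 45.5 and 36.7 CPM in the testis and 79.1, 80.1, 92.6 and 80.1 CPM in the efferent ductules (1.07 ± 0.11 SE, adjusted p = 3.6e-10). Besides Hoxa4, the members higher in the testis were at low levels. Hoxc9, which shapes motor neuron columns of the thoracic spinal cord, was at 1.49, 1.63, 1.31 and 1.47 CPM in the testis and 0.0531, 0.316, 0.109 and 0.203 CPM in the efferent ductules (-3.00 ± 0.40 SE, adjusted p = 7e-08), and Hoxd10, a gene of limb and lumbar spinal cord, was at 0.862 ± 0.308 CPM and 0.184 ± 0.152 CPM (-2.12 ± 0.46 SE, adjusted p = 0.00015). Summed germ cell markers were 13877 to 15447 CPM in the testis and 41.9 to 235 CPM in the efferent ductules, and their part in these differences was not tested.

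Hoxa3 to Hoxa7 were lower in the initial segment than in the efferent ductules at both ages, while Hoxb6, Hoxb7, Hoxb8, Hoxd8, Hoxd9 and Hoxd10 were higher. At 3 months 13 of 37 members were higher in the initial segment (35.1%, against 19.7% of all genes tested) and 11 were lower (29.7%, against 23.7%). At 21 months 9 were higher (24.3%, against 21.1%) and 10 lower (27.0%, against 23.5%), and 19 of the 24 members called at 3 months were called again in the same direction. The shares at 21 months were near those of all genes. The lower members at 3 months included Hoxa3, Hoxa4, Hoxa5, Hoxa6, Hoxa7, Hoxb13, Hoxc4, Hoxc5, Hoxc6 and Hoxd3, and the higher ones were Hoxa9, Hoxa10, Hoxa11, Hoxb1, Hoxb2, Hoxb6, Hoxb7, Hoxb8, Hoxc8, Hoxd4, Hoxd8, Hoxd9 and Hoxd10. Without efferent ductule replicates 2 and 3 at 21 months, the libraries with initial segment markers, 13 members were higher and 7 lower at that age. Fibroblast markers summed to 2739.8 to 3802 CPM in the efferent ductules and 1106 to 1738 CPM in the initial segment at 3 months (8 of 10 lower, 1 higher), adipocyte markers to 807 to 1194 CPM and 21.4 to 43.6 CPM (10 of 10 lower) and smooth muscle markers to 724 to 809.9 CPM and 2809.6 to 3265 CPM (7 of 10 higher, 1 lower). B cell and plasma cell (26.6 to 35.3 CPM and 6.26 to 8.61 CPM), endothelium (340 to 390 CPM and 235 to 298 CPM) and macrophage markers (269 to 286 CPM and 209 to 220 CPM) were also lower in sum in the initial segment. Duct epithelium markers were higher (1484 to 1587 CPM and 1920.1 to 1968 CPM). The part of these lists in the Hox differences was not tested.

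Hoxb7, a gene of the trunk whose promoter fragment is widely used to mark the Wolffian duct, was at 27.96, 34.2, 29.7 and 24.1 CPM in the efferent ductules and 151, 159.6, 160.0 and 144 CPM in the initial segment at 3 months, without overlap and with a log2 fold change of 2.44 ± 0.16 (SE, adjusted p = 1.4e-13). Hoxb6 went from 108, 122, 118 and 97.4 CPM to 297, 263, 288 and 305 CPM (1.42 ± 0.15 SE, adjusted p = 4.3e-09) and Hoxb8 from 72.2 ± 4.00 CPM to 238 ± 19.1 CPM (1.76 ± 0.15 SE, adjusted p = 3.9e-11). Their neighbour Hoxb9 did not pass the test, at 84.4, 89.8, 90.8 and 79.3 CPM and 101, 99.2, 102 and 84.2 CPM, with a log2 fold change of 0.20 ± 0.16 (SE, adjusted p = 0.33). Hoxb1, which in the embryo marks a single segment of the hindbrain, was found almost only in the initial segment, at 3.36, 3.53, 3.73 and 4.39 CPM there against 0.0133 ± 0.0265 CPM in the efferent ductules and 0.417 ± 0.288 CPM in the caput, and 89.7% of its summed level over the 6 ducts lay in that region. The ratio of its counts in the initial segment to those in the efferent ductules was 285 (95% interval 50.6 to 11294). Hoxd9 (2.37 ± 0.15 SE, adjusted p = 3.4e-14) and Hoxd10 (3.29 ± 0.42 SE, adjusted p = 1.1e-07) were also higher, with Hoxd10 at 1.14, 2.03, 2.23 and 1.87 CPM in the initial segment.

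Hoxa5, a gene needed for the airways and lung, was at 30.2, 28.7, 33.9 and 23.1 CPM in the efferent ductules and 10.8, 13.9, 15.5 and 12.97 CPM in the initial segment (-1.08 ± 0.16 SE, adjusted p = 1.2e-06). Hoxa7 was at 27.6, 29.1, 29.1 and 28.9 CPM and 8.499, 13.3, 14.2 and 13.9 CPM (-1.16 ± 0.22 SE, adjusted p = 4.2e-05), and Hoxa4 fell from 9.60 to 3.29 ± 0.826 CPM (-1.497 ± 0.19 SE, adjusted p = 1.3e-07). The groups of these 3 HoxA genes did not overlap. The HoxA genes from Hoxa2 to Hoxa7 had their highest duct mean in the efferent ductules at 3 months, together with Hoxc4, while Hoxa9 and Hoxa10, the next genes of the cluster, were higher in the initial segment with overlapping groups. Of the exon bases of Hoxa7, 20.4% are shared with a gene on the other strand.

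Hoxc5, Hoxc8, Hoxc9 and Hoxc10 were higher in the caput than in the initial segment at both ages, and the HoxB genes from Hoxb5 to Hoxb9 were lower. At 3 months 12 of 37 members were higher in the caput (32.4%, against 15.0% of all genes tested) and 11 lower (29.7%, against 12.8%), and 6 of the 7 HoxC members were among the higher ones. At 21 months 6 were higher (16.2%, against 14.9%, so near the share of all genes), or 3 without the libraries of replicate 3, and 15 were lower (40.5%, against 14.8%). Then 4 of 7 HoxC members were higher, and 17 of the 23 calls at 3 months came again. Of the others, Hoxa4, Hoxb3 and Hoxc4 had fitted differences of the other sign at 21 months, with log2 fold changes of -0.27 ± 0.21, -0.35 ± 0.20 and -0.16 ± 0.25 (SE) that did not pass the test. Summed smooth muscle markers were 2809.6 to 3265 CPM in the initial segment and 1204 to 1577 CPM in the caput at 3 months, although 3 of the 10 genes were called higher and 1 lower, and endothelium markers were 235 to 298 CPM and 98.4 to 118 CPM (7 of 8 lower). Their part in the Hox differences was not tested.

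Hoxc9 was at 0.429, 0.0598, 0.421 and 0.258 CPM in the initial segment and 4.21, 4.82, 4.49 and 3.71 CPM in the caput (3.95 ± 0.35 SE, adjusted p = 2.4e-10). Hoxd1, an anterior gene of sensory neurons, was at 0.143, 0.359, 0.0602 and 0.258 CPM and 1.27, 1.07, 1.21 and 1.45 CPM (2.66 ± 0.50 SE, adjusted p = 0.00021), and it was back at 0.142, 0.0720, 0.114 and 0.155 CPM in the corpus, so that it passed 1 CPM in the caput alone. Hoxd3 went from 8.93, 6.28, 6.92 and 8.91 CPM to 21.4, 21.0, 18.1 and 21.9 CPM (1.497 ± 0.16 SE, adjusted p = 7e-09), although 62.3% of its exon bases are shared with Hoxd4 or other genes on the same strand, and how the counting treated shared bases was not given in the sources used here. In the other direction, Hoxb1 fell to 0.333, 0.134, 0.383 and 0.818 CPM (-2.99 ± 0.42 SE, adjusted p = 9.8e-06) and Hoxd10 had a log2 fold change of -2.43 ± 0.41 (SE, adjusted p = 2.4e-05). Hoxa9, a gene of the hind trunk and of blood stem cells, went from 6.43, 13.1, 9.63 and 9.17 CPM to 3.05, 4.15, 3.51 and 2.77 CPM (-1.44 ± 0.23 SE, adjusted p = 8.1e-06). The groups of all 6 of these genes were separate.

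At 3 months the corpus held less of 20 Hox genes than the caput and more of 4. The 20 lower ones were of 37 members tested (54.1%, against 17.6% of all genes tested) and the 4 higher ones made 10.8% (against 15.9%), with a median log2 fold change of -0.72 over the members and 0 over all genes. At 21 months 14 were lower (37.8%, against 15.4%) and 6 higher (16.2%, against 16.9%), or 18 lower and 4 higher with scaling by library size alone, which moved the median of all genes to -0.23. Of the 24 calls at 3 months, 17 came again at 21 months, and the fitted difference of Hoxb5 and Hoxc6 had the other sign then without a call. The lower members at 3 months were of groups 1 to 4 (9 of 12), groups 5 to 8 (10 of 11) and Hoxb9, while the 4 higher ones, Hoxa9, Hoxa10, Hoxc9 and Hoxc10, were all of groups 9 and 10 and were higher at both ages. Summed smooth muscle markers, at 1204 to 1577 CPM in the caput and 657 to 996 CPM in the corpus, were lower too, with 9 of 10 genes called lower at 3 months and 4 at 21 months. Duct epithelium markers (1745 to 2167 CPM and 2467 to 3043 CPM, 5 of 10 higher and 2 lower at 3 months), macrophage markers (125 to 136 CPM and 241 to 310.4 CPM, 6 of 8 higher) and B cell and plasma cell markers (5.91 to 9.37 CPM and 28.3 to 53.7 CPM, 4 of 7 higher) moved the other way. Leydig cell (10.8 to 18.5 CPM and 217 to 242 CPM), germ cell (109 to 154 CPM and 255 to 309.8 CPM), T cell (3.33 to 5.10 CPM and 6.34 to 8.11 CPM) and endothelium markers (98.4 to 118 CPM and 119 to 167 CPM) were also higher in sum in the corpus at 3 months. Sertoli cell markers were lower (87.1 to 100.9 CPM and 28.5 to 36.4 CPM). The part of these lists in the Hox differences was not tested.

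Hoxc10 was at 0.166, 0.134, 0.164 and 0.252 CPM in the caput and 1.57, 2.23, 2.63 and 1.70 CPM in the corpus (3.35 ± 0.51 SE, adjusted p = 7e-06). Hoxa9 returned from its low in the caput to 16.5, 17.8, 14.4 and 15.2 CPM (2.18 ± 0.23 SE, adjusted p = 3.2e-09) and Hoxa10, which is known for patterning the uterus and the vas deferens, was at 6.91, 4.75, 4.79 and 3.25 CPM against 1.16, 2.54, 2.63 and 1.07 CPM (1.39 ± 0.30 SE, adjusted p = 0.00052). All 3 genes had separate groups. Hoxb9 went from 60.1, 57.0, 54.8 and 54.0 CPM to 8.19, 14.3, 10.8 and 7.27 CPM (-2.57 ± 0.18 SE, adjusted p = 5.3e-13), its lowest level in any duct, and the dip was there at 21 months at 7.70, 9.41, 8.86 and 7.96 CPM. Hoxa3, a gene of the pharyngeal arches and thymus, went from 15.5, 17.1, 16.2 and 13.7 CPM to 3.56, 3.96, 6.16 and 6.03 CPM (-1.76 ± 0.18 SE, adjusted p = 1.9e-09), with 25.4% of its exon bases shared with the other strand. Hoxb1 had no count in the corpus at 3 months and was at least 8.81-fold lower there than in the caput, taking 3 counts over the group as the floor, and Hoxd1 was lower by a log2 fold change of -3.40 ± 0.56 (SE, adjusted p = 2.8e-05).

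In the cauda Hoxa11, Hoxd11 and Hoxd13, 3 of the 7 tested members of groups 11 to 13, were higher than in the corpus at 3 months. At 3 months 8 of 37 members were higher in the cauda than in the corpus (21.6%, against 13.2% of all genes tested) and 4 lower (10.8%, against 11.2%). At 21 months 8 were higher (21.6%, against 13.8%) and 3 lower (8.11%, against 13.1%), and 9 of the 12 calls at 3 months came again, with the fitted difference of Hoxd8 of the other sign and not called. With scaling by library size alone the split was 8 higher and 2 lower at 3 months, where the median of all genes became 0.17, and 13 higher and 2 lower at 21 months, where it became 0.30. Hoxa10, Hoxa11, Hoxb8, Hoxb9, Hoxd10, Hoxd11 and Hoxd13 were higher at both ages. At 21 months the number called fell to 7 when the libraries of replicate 3 were left out, and at 3 months it was 9 higher and 4 lower without cauda replicate 3, a library chosen after its markers were seen.

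Hoxd11 was at 0.0907 ± 0.0892 CPM in the corpus and 5.23, 5.65, 5.14 and 7.08 CPM in the cauda (5.89 ± 0.39 SE, adjusted p = 3.7e-12). Hoxa11, whose loss gives the vas deferens epididymal features, was at 0.294 ± 0.140 CPM and 13.2, 15.1, 10.4 and 13.5 CPM (5.38 ± 0.44 SE, adjusted p = 2.7e-10), and 35.0% of its exon bases are shared with its antisense gene Hoxa11os. Hoxd10 went from 0.356, 0.864, 0.913 and 0.773 CPM to 13.98, 14.7, 10.4 and 14.5 CPM (4.12 ± 0.32 SE, adjusted p = 2.5e-11). Each of these posterior genes was separate in all 8 libraries. Hoxa10 was at 50.004, 53.6, 47.8 and 51.3 CPM in the cauda against 4.93 CPM in the corpus (3.29 ± 0.26 SE, adjusted p = 2.2e-11), and Hoxd13, a gene of digits and external genitalia, was at least 5.27-fold higher from 0.275 ± 0.189 CPM in the cauda and no count in the corpus. Hoxb9 regained 70.8, 69.1, 36.3 and 77.1 CPM (2.57 ± 0.18 SE, adjusted p = 1.4e-12), where the 36.3 CPM belonged to cauda replicate 3. Among the lower members, Hoxa7 went from 4.49, 4.03, 4.62 and 3.25 CPM to 1.60, 1.52, 2.28 and 2.74 CPM (-1.07 ± 0.26 SE, adjusted p = 0.0023), Hoxc9 from 7.91 to 4.07 ± 0.514 CPM (-1.01 ± 0.25 SE, adjusted p = 0.0024) and Hoxc8, a thoracic skeleton gene, from 11.7 to 6.72 ± 1.17 CPM (-0.86 ± 0.22 SE, adjusted p = 0.0033). All 10 smooth muscle markers were higher in the cauda at both ages (657 to 996 CPM in the corpus and 5005 to 7722 CPM in the cauda at 3 months). Skeletal muscle markers (7.89 to 10.6 CPM and 106 to 222 CPM, 9 of 10 higher), macrophage markers (241 to 310.4 CPM and 327 to 1607 CPM, 7 of 8 higher) and germ cell markers (255 to 309.8 CPM and 374 to 671 CPM, 0 of 12 called) were also higher in sum at 3 months. Duct epithelium markers (2467 to 3043 CPM and 1249.8 to 2254 CPM, 6 of 10 lower, 1 higher), B cell and plasma cell markers (28.3 to 53.7 CPM and 13.1 to 27.4 CPM, 2 of 7 lower) and Leydig cell markers (217 to 242 CPM and 8.39 to 11.9 CPM, 1 of 7 lower) were lower in sum, and the part of these lists in the Hox differences was not tested. Cauda replicate 3 alone set the ends at 5005 CPM (smooth muscle), 1607 CPM (macrophage), 374 CPM (germ cell) and 1249.8 CPM (duct epithelium).

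At the last step, into the vas deferens, groups 11 to 13 were higher and most HoxC genes of the groups before them lower. At 3 months 8 of 37 members were higher in the vas deferens than in the cauda (21.6%, against 15.1% of all genes tested) and 15 lower (40.5%, against 21.3%). At 21 months 11 were higher (29.7%, against 16.6%) and 8 lower (21.6%, against 18.5%), and 15 of the 23 calls at 3 months came again, with the fitted difference of Hoxa5 of the other sign and not called. Of the 7 tested members of groups 11 to 13, 6 were higher at both ages, namely Hoxa11, Hoxa13, Hoxc11, Hoxd11, Hoxd12 and Hoxd13, and the seventh, Hoxb13, was under 1 CPM everywhere. Of the 7 HoxC members, 6 were lower and 1, Hoxc11, higher at 3 months. With scaling by library size alone the numbers were 8 higher and 6 lower at 3 months and 12 higher and 5 lower at 21 months, so the count of lower members depended on the scaling while that of higher ones moved by at most 1 with it. Without the libraries of replicate 3, however, 7 members were higher at 21 months in place of 11. Without those of replicate 2, fewer than 15 members were lower at 3 months.

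Hoxa13, which is needed for digits and for the hind end of the gut and urogenital tract, was at 7.40, 5.50, 4.85 and 4.92 CPM in the vas deferens and had no count in any cauda library at 3 months, so it was at least 125-fold higher. At 21 months its 4 libraries were at 14.5, 10.1, 5.79 and 1.03 CPM and it was at least 164-fold higher than in the cauda. The lowest of these, 1.03 CPM, was replicate 4. Its smooth muscle markers were the lowest of its group at 14356 CPM, but above the 13690.2 to 14127 CPM of the 3-month libraries. It also stood apart from the other 21-month libraries on T cell (54.3 CPM against 18.7 to 29.6 CPM), B cell and plasma cell (1113 CPM against 491 to 690 CPM) and seminal vesicle markers (12.3 CPM against 486 to 1929 CPM). The part of these in the Hoxa13 level was not tested. Hoxd13 was at 13.01, 11.2, 10.2 and 11.4 CPM in the vas deferens (5.50 ± 0.36 SE, adjusted p = 8.2e-11) and at 15.7, 14.1, 13.2 and 7.19 CPM at 21 months (5.96 ± 0.48 SE, adjusted p = 6.5e-10), again with replicate 4 lowest. Hoxd12 was at 2.12, 3.88, 3.26 and 4.33 CPM (5.50 ± 0.57 SE, adjusted p = 1.1e-07) and Hoxc11 at 1.90, 2.50, 2.13 and 2.68 CPM (3.54 ± 0.49 SE, adjusted p = 2.5e-06). For these 4 genes 89.6% (Hoxc11) to 99.8% (Hoxa13) of the summed level over the 6 ducts at 3 months lay in the vas deferens.

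The group 11 genes of HoxA and HoxD stepped up from the cauda rather than appearing in the vas deferens. Hoxd11 went from 5.23, 5.65, 5.14 and 7.08 CPM in the cauda to 23.2, 18.4, 18.7 and 19.3 CPM in the vas deferens (1.93 ± 0.22 SE, adjusted p = 5e-08), and Hoxa11 from 13.2, 15.1, 10.4 and 13.5 CPM to 27.4, 38.4, 28.7 and 32.3 CPM (1.43 ± 0.29 SE, adjusted p = 0.00027). Hoxa10 and Hoxd10 did not pass the test at 3 months, at 48.5, 55.4, 42.6 and 52.0 CPM and 10.6, 12.3, 7.32 and 11.2 CPM in the vas deferens with log2 fold changes of 0.11 ± 0.22 (SE, adjusted p = 0.77) and -0.22 ± 0.25 (SE, adjusted p = 0.54). At 21 months both were called higher in the vas deferens, Hoxa10 at 50.5, 58.4, 55.5 and 34.4 CPM against 32.9, 34.1, 36.6 and 35.6 CPM with overlapping groups (0.62 ± 0.24 SE, adjusted p = 0.048) and Hoxd10 at 15.02, 18.2, 17.7 and 12.4 CPM against 8.42, 11.1, 7.63 and 9.08 CPM without overlap (0.91 ± 0.22 SE, adjusted p = 0.0018). The paralogue Hoxc10 instead fell from 2.59, 3.37, 3.50 and 2.49 CPM to 1.69, 0.313, 0.791 and 0.730 CPM (-1.60 ± 0.38 SE, adjusted p = 0.0012), the only group 10 gene called in this comparison at 3 months. Hoxc8 went from 7.08, 5.21, 8.01 and 6.57 CPM to 2.12, 1.56, 2.67 and 1.56 CPM (-1.62 ± 0.24 SE, adjusted p = 2.3e-06) and Hoxc9 from 3.69, 3.81, 4.83 and 3.95 CPM to 2.12, 0.813, 1.39 and 0.973 CPM (-1.48 ± 0.27 SE, adjusted p = 6e-05), both without overlap. All 10 smooth muscle markers were higher in the vas deferens than in the cauda at both ages, at 13690.2 to 14127 CPM against 5005 to 7722 CPM at 3 months. Adipocyte markers (240.4 to 431 CPM against 57.1 to 114 CPM, 8 of 10 higher) moved the same way and germ cell markers (9.31 to 100.2 CPM against 374 to 671 CPM, 10 of 12 lower) and macrophage markers (167 to 228 CPM against 327 to 1607 CPM, 8 of 8 lower) the other way, without overlap, and the part of these lists in the Hox differences was not tested.

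**Figure D3:**
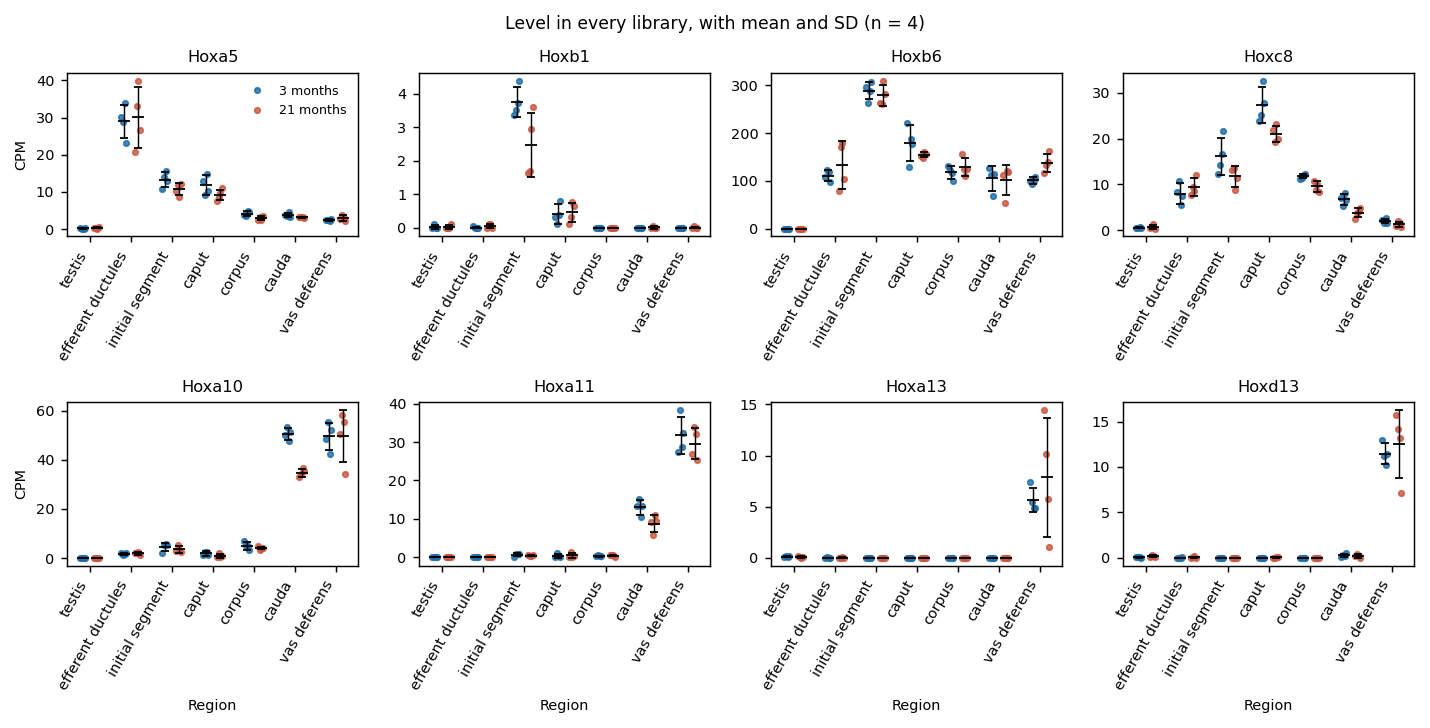
Level (CPM) of 8 Hox genes in every library of the 7 regions at 3 months (blue) and 21 months (red), with black bars for the mean and SD (n = 4). Hoxa5 is highest in the efferent ductules, Hoxb1 and Hoxb6 in the initial segment and Hoxc8 in the caput, while Hoxa10 is high in the cauda (50.7 ± 2.42 CPM at 3 months) and vas deferens, and Hoxa13 and Hoxd13 only in the vas deferens.

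Comparing the 2 ends of the continuous duct, the vas deferens and the initial segment, put the members on opposite sides by paralogue number. At 3 months 11 of 37 were higher in the vas deferens (29.7%, against 19.6% of all genes tested) and 21 lower (56.8%, against 23.7%), with a median log2 fold change of -0.86 over the members and 0 over all genes. The higher ones were 5 of 7 members of groups 9 and 10 and 6 of 7 of groups 11 to 13, and the lower ones were 9 of 12 in groups 1 to 4, 10 of 11 in groups 5 to 8 and 2 of 7 in groups 9 and 10, Hoxb9 and Hoxd9. At 21 months 10 were higher (27.0%, against 19.3%) and 17 lower (45.9%, against 19.2%), and 27 of the 32 calls at 3 months came again, the others being Hoxa9, Hoxb5, Hoxc4, Hoxc6 and Hoxd1. At both ages every called member of groups 1 to 8 was lower in the vas deferens and every called member of groups 11 to 13 was higher there. Smooth muscle markers summed to 2809.6 to 3265 CPM in the initial segment and 13690.2 to 14127 CPM in the vas deferens at 3 months (9 of 10 higher, 1 lower), fibroblast markers to 1106 to 1738 CPM and 2316 to 2773 CPM (8 of 10 higher, 1 lower) and adipocyte markers to 21.4 to 43.6 CPM and 240.4 to 431 CPM (9 of 10 higher). Skeletal muscle markers (4.55 to 8.07 CPM and 221 to 304 CPM, 3 of 10 higher, 1 lower) and B cell and plasma cell markers (6.26 to 8.61 CPM and 12.7 to 27.6 CPM, 6 of 7 higher) were also higher in sum, and duct epithelium markers lower (1920.1 to 1968 CPM and 1457 to 1649 CPM, 2 of 10 higher, 6 lower), and the part of these lists in the Hox differences was not tested.

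The largest of these differences are bounds, since the genes had no count in the initial segment at 3 months. Hoxd11 was at least 417-fold, Hoxd13 at least 240.0-fold, Hoxa13 at least 118-fold and Hoxd12 at least 71.1-fold higher in the vas deferens. The same bounds at 21 months were 384, 259.6, 164 and 64.5. Hoxa11 (5.65 ± 0.39 SE, adjusted p = 1.8e-12) and Hoxa10 (3.50 ± 0.26 SE, adjusted p = 1.3e-12) had counts at both ends. Toward the initial segment, Hoxb1 was at least 94.7-fold lower in the vas deferens, and Hoxc8 (-2.95 ± 0.24 SE, adjusted p = 1e-11), Hoxa7 (-2.94 ± 0.25 SE, adjusted p = 4.2e-11) and Hoxa5 (-2.32 ± 0.18 SE, adjusted p = 2.6e-12) were also lower.

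The place of each member along the ducts was summarised as the mean region number, from 1 for the efferent ductules to 6 for the vas deferens, weighted by the mean CPM. Within HoxA this index was 2.20 for Hoxa5, 2.02 for Hoxa7, 4.21 for Hoxa9, 5.18 for Hoxa10, 5.61 for Hoxa11 and 5.99 for Hoxa13 at 3 months, so the change of place fell between groups 7 and 10. Within HoxD it was 2.80 for Hoxd1, 3.27 for Hoxd8, 5.10 for Hoxd10, 5.76 for Hoxd11 and 5.97 for Hoxd13. Over the 36 members that reached 1 CPM in a duct, the index and the paralogue number had a Spearman's rho of 0.73 at 3 and 0.74 at 21 months and a Pearson's r of 0.82 and 0.80. By cluster, rho at 3 and 21 months was 0.63 and 0.60 in HoxA (11 genes), 0.75 and 0.75 in HoxC (7) and 0.95 and 0.92 in HoxD (9), but -0.20 and 0.03 in HoxB (9), which has no expressed member beyond Hoxb9. These are correlations across genes of the same libraries and are given as a description. HoxB members lay close together, between 2.10 for Hoxb1 and 3.52 for Hoxb4 at 3 months. Between the ages the index moved by a median of 0.0717 region numbers, and most for Hoxb5, from 3.01 to 3.44.

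**Figure D4:**
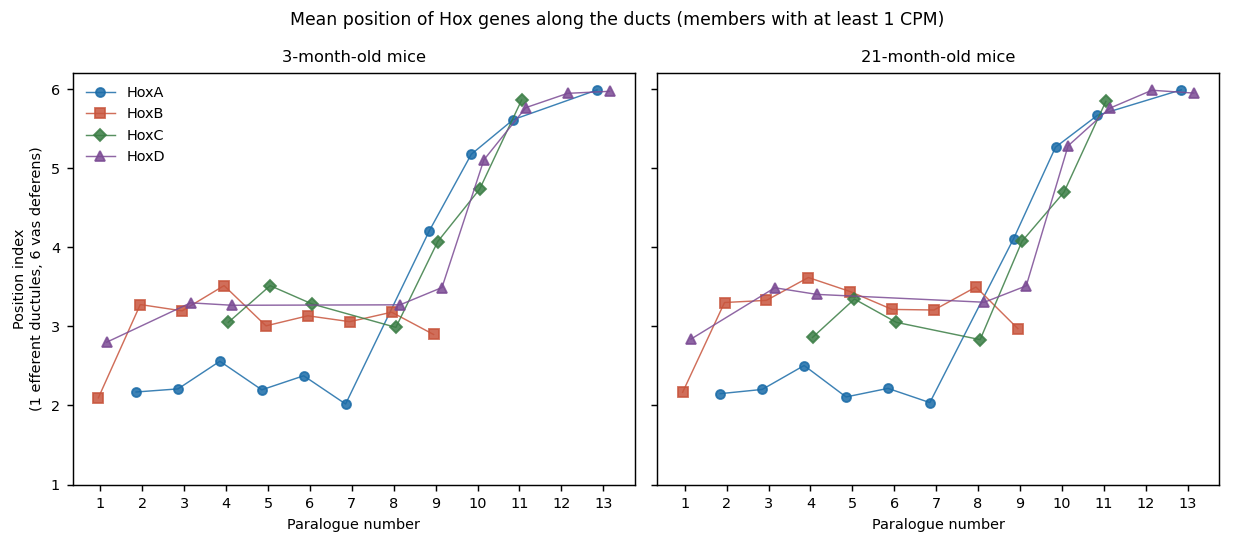
Position index along the ducts (1 efferent ductules, 6 vas deferens) against paralogue number for 35 of the 36 members of at least 1 CPM, one line per cluster, at 3 months (left) and 21 months (right). The points rise steeply from group 7 to group 11 in HoxA and from group 8 or 9 to group 11 in HoxC and HoxD (Hoxd8 3.27, Hoxd11 5.76 at 3 months), while HoxB lies between 2.10 and 3.52 at 3 and between 2.17 and 3.62 at 21 months.

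Counting the duct region with the highest mean at 3 months, efferent ductules were the peak of 8 members, initial segment of 9, caput of 7, corpus of 2, cauda of 4 and vas deferens of 6. The caput group was Hoxb3, Hoxb4, Hoxc6, Hoxc8, Hoxd1, Hoxd3 and Hoxd4, the corpus pair was Hoxc5 and Hoxc9, and the cauda group was Hoxa9, Hoxa10, Hoxc10 and Hoxd10. At 21 months the numbers were 11, 8, 4, 2, 2 and 9, where the 11 of the efferent ductules include Hoxb3, whose mean there rests on the replicates with initial segment markers. A peak by mean alone need not differ from its neighbour: Hoxa10 and Hoxd10 did not pass the test between cauda and vas deferens at 3 months, and Hoxb3 and Hoxb4 were called between initial segment and caput with overlapping groups.

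Further members ranged as follows over the 6 ducts at 3 months, as mean ± SD of 4 libraries. Hoxa2, a gene of the second pharyngeal arch, ran from 0.461 ± 0.297 CPM (cauda) to 4.79 ± 1.18 CPM (efferent ductules) and Hoxa6 from 0.955 ± 0.341 CPM (vas deferens) to 8.60 ± 1.47 CPM (efferent ductules). Both genes were low in every duct and, like Hoxa5 and Hoxa7, had their highest mean in the efferent ductules. Hoxb2, Hoxb3 and Hoxb4 differed less between ducts. Hoxb2, which acts in the hindbrain and facial nerve, ran from 22.1 ± 3.44 CPM (vas deferens) to 44.4 ± 4.54 CPM (initial segment). Hoxb3 ran from 46.2 ± 2.84 CPM (corpus) to 109 ± 24.6 CPM (caput) and Hoxb4, a gene also known from blood stem cells, from 44.5 ± 4.24 CPM (corpus) to 77.3 ± 15.8 CPM (caput). The highest duct mean was 2.01, 2.35 and 1.74 times the lowest in these 3, whereas for Hoxa6 it was 9.001 times. Of the HoxC genes, Hoxc4 ran from 3.24 ± 0.436 CPM (vas deferens) to 12.5 ± 0.906 CPM (efferent ductules), Hoxc5 from 5.199 ± 0.751 CPM (vas deferens) to 13.9 ± 1.56 CPM (corpus) and Hoxc6 from 8.503 ± 0.851 CPM (vas deferens) to 25.9 ± 4.18 CPM (caput), so each was lowest by mean in the vas deferens. Hoxd4, a gene of the neck vertebrae, ran from 18.6 ± 2.27 CPM (vas deferens) to 47.6 ± 8.64 CPM (caput). Hoxd9 ran from 13.95 ± 1.61 CPM (efferent ductules) to 70.2 ± 2.76 CPM (initial segment) and thus had its lowest and highest means in neighbouring ducts. It was called at that step, and it was also called lower in the caput than in the initial segment and in the vas deferens than in the cauda.

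Age was compared within each region, 4 libraries at 21 months against 4 at 3 months, to ask how far the pattern held in old mice. Most members did not pass the test in most regions, and the largest set of differences lay in the caput.

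In the testis 2 of 31 tested members were higher at 21 months (6.45%, against 0.353% of all genes tested) and 0 lower (against 0.210%) by edgeR's test, with 0 lower at an unadjusted p under 0.05 and 0 by DESeq2. Hoxd10 was at 0.630, 0.652, 0.873 and 1.29 CPM at 3 months and 2.57, 2.53, 2.18 and 1.87 CPM at 21 months (1.41 ± 0.25 SE, adjusted p = 0.0063), and it stayed called in all 8 fits that left out 1 library. Hoxd11 had 3 counts over the 4 libraries at 3 months and was at 0.382, 0.967, 0.490 and 0.496 CPM at 21 months, a ratio of counts of 13.9 (95% interval 4.45 to 70.0) with an adjusted p of 0.0098 in edgeR's test, and it was lost without testis replicate 2 of the 21-month-old mice. Both genes share exon bases with Gm28309 on the same strand. Hoxa4, the main testis member, was at 40.6, 45.8, 45.2 and 36.3 CPM and 52.5, 47.0, 52.2 and 47.4 CPM, and it did not pass the test although its groups did not overlap (0.24 ± 0.07 SE, adjusted p = 0.17).

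In the efferent ductules 4 of 30 tested members were higher at 21 months (13.3%, against 4.00% of all genes tested) and 0 lower (against 2.98%) by edgeR's test, with 0 lower at an unadjusted p under 0.05 and 0 by DESeq2. They were Hoxd9, at 14.4, 11.7, 14.2 and 15.6 CPM and 18.1, 29.1, 26.9 and 17.2 CPM (0.78 ± 0.17 SE, adjusted p = 0.027), Hoxb2, at 27.5, 29.9, 28.9 and 25.7 CPM and 30.0, 39.5, 53.9 and 38.6 CPM (0.60 ± 0.15 SE, adjusted p = 0.038), Hoxd8 (0.49 ± 0.10 SE, adjusted p = 0.020) and Hoxb7 (0.48 ± 0.12 SE, adjusted p = 0.037). The groups of Hoxd8 overlapped and those of the other 3 did not. Of the exon bases of Hoxb2, 27.3% are shared with Hoxb3os on the other strand. These calls were fragile: with scaling by library size alone 0 members were called, and with 1 library left out, 0 to 4 members were called, with 0 without replicate 1, 3 or 4 of the 3-month-old mice and 1 without their replicate 2, and with 1 without replicate 3 and 2 without replicate 4 of the 21-month-old mice. Other HoxB genes split the 21-month libraries, as Hoxb5 was at 21.0, 74.9, 93.3 and 23.6 CPM and Hoxb3 at 49.1, 125, 149 and 63.5 CPM, where the 2 high libraries, replicates 2 and 3, were those with initial segment markers. Replicate 3, with fewer of these markers than replicate 2, was the higher for both genes. The highest duct mean of Hoxb5 at 21 months was 59.8 CPM (vas deferens). Lcn8, an initial segment marker, had a mean of 6868 CPM in the initial segment at 21 months. Sertoli cell markers were at 134 and 149 CPM in replicates 1 and 4 and 284 and 319 CPM in replicates 2 and 3, against 209 to 266 CPM at 3 months. The source of the split was not tested. Without replicates 2 and 3, a choice made after the markers were seen, 10 members were called, Hoxb2, Hoxb7, Hoxd8 and Hoxd9 higher and Hoxa3, Hoxb3, Hoxb4, Hoxb5, Hoxd3 and Hoxd4 lower. Macrophage markers (5 of 8 higher), T cell markers (5 of 8 higher) and B cell and plasma cell markers (3 of 7 higher, 26.6 to 35.3 CPM at 3 and 106 to 401 CPM at 21 months) moved with age in this tissue. Fibroblast markers summed to 2739.8 to 3802 CPM at 3 and 1443 to 1641 CPM at 21 months (3 of 10 lower) and adipocyte markers to 807 to 1194 CPM and 309 to 722 CPM (3 of 10 lower), without overlap. Duct epithelium markers (1484 to 1587 CPM and 1696 to 2025 CPM, 1 of 10 higher) and smooth muscle markers (724 to 809.9 CPM and 841 to 986 CPM, 2 of 10 higher) did not overlap either, and the part of all these was not tested.

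In the initial segment 0 of 30 tested members were higher (against 3.35% of all genes tested) and 0 lower (against 3.01%) by edgeR's quasi-likelihood test, and 0 had an unadjusted p under 0.05 and 0 were called by DESeq2. The high HoxB genes were close at both ages, as Hoxb8 was at 264, 229, 239.7 and 219.8 CPM and 204, 199, 236 and 217 CPM, with a log2 fold change of -0.02 ± 0.08 (SE). Hoxb1, with its narrow place in this region, was at 3.36, 3.53, 3.73 and 4.39 CPM and 1.64, 1.69, 2.94 and 3.61 CPM (-0.46 ± 0.26 SE, adjusted p = 0.37). Its groups overlapped.

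In the caput 15 of 31 tested members were lower at 21 months (48.4%, against 5.05% of all genes tested) and 1 higher (3.23%, against 3.09%), and the median log2 fold change was -0.53 over the members and -0.01 over all genes. The lower ones were Hoxa3, Hoxa4, Hoxa6, Hoxa7, Hoxb2, Hoxb3, Hoxb4, Hoxb5, Hoxb8, Hoxc4, Hoxc5, Hoxc6, Hoxc8, Hoxc9 and Hoxd3, that is 7 of 12 members of groups 1 to 4, 7 of 11 of groups 5 to 8 and 1 of 7 of groups 9 and 10. By cluster they were 4 of 10 in HoxA, 5 of 9 in HoxB, 5 of 6 in HoxC and 1 of 6 in HoxD. Hoxc4, a gene of the neck region, was at 10.9, 7.63, 9.31 and 10.9 CPM at 3 months and 5.75, 4.30, 5.28 and 5.05 CPM at 21 months (-0.98 ± 0.15 SE, adjusted p = 0.0029). Hoxc6 was at 28.9, 23.4, 29.9 and 21.3 CPM and 10.2, 12.8, 14.02 and 16.5 CPM (-1.01 ± 0.16 SE, adjusted p = 0.0033), and Hoxc9 at 4.21, 4.82, 4.49 and 3.71 CPM and 2.02, 2.31, 1.62 and 2.55 CPM (-1.07 ± 0.22 SE, adjusted p = 0.013). Every library of the 3-month-old mice was above every library of the 21-month-old mice for these 3 genes. The one higher member, Hoxd1, was at 1.27, 1.07, 1.21 and 1.45 CPM and 2.08, 2.57, 2.71 and 1.90 CPM (0.83 ± 0.24 SE, adjusted p = 0.049), and it was called in 1 of the 8 fits that left out 1 library.

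The caput count depended on libraries and scaling. With 1 library left out 8 to 16 members were called, the fewest without replicate 1 or 3 (8 each) or replicate 2 or 4 (10 each) of the 21-month-old mice, and 12 without replicate 2 of the 3-month-old mice, the library rich in Gm42418. Hoxc4, Hoxc5, Hoxc6, Hoxd3, Hoxb3, Hoxb5 and Hoxb8 were called in all 8 of these fits. With scaling by library size alone, which moved the median of all genes to 0.19, 0 members were called, while with the same scaling and caput replicate 2 at 3 months left out 12 were called, all lower and all among the 15. In the same libraries 9 of 10 smooth muscle markers were lower at 21 months (1204 to 1577 CPM at 3 and 866 to 1006 CPM at 21 months), as were 4 of 10 fibroblast markers (765 to 1636 CPM and 525 to 594 CPM). T cell markers (3.33 to 5.10 CPM and 9.17 to 13.98 CPM, 3 of 8 higher) and macrophage markers (125 to 136 CPM and 151 to 177 CPM, 2 of 8 higher) moved the other way, and the part of these lists in the Hox differences was not tested.

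In the corpus 1 of 31 tested members was lower at 21 months (3.23%, against 1.47% of all genes tested) and 0 higher (against 1.5%) by edgeR's test, with 1 higher at an unadjusted p under 0.05 and 0 by DESeq2. It was Hoxc6, at 19.7, 18.5, 24.2 and 16.8 CPM and 14.1, 13.03, 12.8 and 17.1 CPM with overlapping groups (-0.48 ± 0.13 SE, adjusted p = 0.048), and it was called in 1 of the 8 fits that left out 1 library, the one without replicate 4 of the 3-month-old mice. DESeq2 called 4 members lower, Hoxa9, Hoxc4, Hoxc5 and Hoxc6. In the cauda 0 of 32 tested members were higher (against 0.0700% of all genes tested) and 0 lower (against 0.0583%) by edgeR's test, with 9 at an unadjusted p under 0.05 and 3 called by DESeq2, Hoxa10, Hoxc5 and Hoxc6, all lower. Hoxa10 was at 50.004, 53.6, 47.8 and 51.3 CPM at 3 months and 32.9, 34.1, 36.6 and 35.6 CPM at 21 months, without overlap, and among the edgeR fits that left out 1 library it was called only in the one without cauda replicate 2 of the 21-month-old mice, the library with low epithelial markers. Its fitted log2 fold change with all libraries was -0.54 ± 0.11 (SE, adjusted p = 0.099). In the cauda smooth muscle (5005 to 7722 CPM at 3 and 3380 to 4878 CPM at 21 months) and fibroblast markers (2313 to 9448 and 1075 to 1244 CPM) were lower in sum. B cell and plasma cell markers were higher (13.1 to 27.4 and 40.3 to 240 CPM). In the corpus fibroblast markers were lower (1581 to 3186 and 739 to 940 CPM) and T cell markers higher (6.34 to 8.11 and 9.95 to 14.2 CPM). These sums did not overlap, and their part in the Hox differences was not tested.

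In the vas deferens 5 of 34 tested members were higher at 21 months (14.7%, against 11.4% of all genes tested) and 0 lower (against 8.47%) by edgeR's test, with 1 lower at an unadjusted p under 0.05 and 0 by DESeq2. The share of higher members was near that of all genes. Of these, 4 are neighbours in HoxB. Hoxb5, a gene of the enteric nervous system and mid-trunk, was at 32.2, 28.9, 36.5 and 31.8 CPM at 3 months and 53.3, 56.5, 63.2 and 66.1 CPM at 21 months (0.82 ± 0.09 SE, adjusted p = 0.00057). Hoxb8 was at 63.0, 65.0, 60.5 and 52.8 CPM and 94.5, 109, 159 and 173 CPM (1.09 ± 0.17 SE, adjusted p = 0.0019), and Hoxb6 at 101, 93.4, 101 and 109 CPM and 117, 133, 139 and 162 CPM (0.38 ± 0.10 SE, adjusted p = 0.023). Hoxb7 was at 30.5, 33.2, 31.8 and 29.4 CPM and 34.6, 38.0, 55.9 and 61.5 CPM (0.54 ± 0.16 SE, adjusted p = 0.036), and Hoxd10 at 10.6, 12.3, 7.32 and 11.2 CPM and 15.02, 18.2, 17.7 and 12.4 CPM (0.55 ± 0.17 SE, adjusted p = 0.043). None of the 5 overlapped between the ages. Hoxb5 and Hoxb8 were called in all 8 fits that left out 1 library, Hoxb6 in 5, Hoxb7 in 3 and Hoxd10 in 2, and the number called was 2 without replicate 1 or 3 of the 3-month-old mice and 3 without their replicate 4 or without replicate 3 of the 21-month-old mice.

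The posterior genes that set the vas deferens apart did not pass the test for age there. Hoxa11 was at 27.4, 38.4, 28.7 and 32.3 CPM and 26.9, 33.8, 32.1 and 25.4 CPM, with a log2 fold change of -0.16 ± 0.12 (SE, adjusted p = 0.36). Hoxd11 had -0.17 ± 0.17 (SE, adjusted p = 0.53) and Hoxd13 0.07 ± 0.21 (SE, adjusted p = 0.85) on the same scale. Hoxa13 had 0.42 ± 0.53 (SE, adjusted p = 0.62), with the 21-month libraries spread on both sides of the 3-month ones. Lymphocyte markers were higher in the 21-month vas deferens, with 8 of 8 T cell and 7 of 7 B cell and plasma cell genes called, macrophage markers overlapped (167 to 228 CPM at 3 and 176 to 278 CPM at 21 months, 3 of 8 higher), and seminal vesicle markers were at 12.3 to 1929 CPM against 1.75 to 3.75 CPM at 3 months. Of the smooth muscle markers 5 of 10 were higher (13690.2 to 14127 CPM at 3 and 14356 to 23257 CPM at 21 months). Duct epithelium markers were at 1457 to 1649 CPM and 1755 to 2424 CPM (4 of 10 higher, 1 lower) and fibroblast markers at 2316 to 2773 CPM and 1068 to 1589.9 CPM (7 of 10 lower), and neither sum overlapped between the ages. The part of these in the HoxB differences was not tested.

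Whether the age difference itself varied between the ends of the duct was tested as the age difference in the vas deferens minus that in the initial segment. It was positive for 3 of 37 members (8.11%, against 5.94% of all genes tested) and negative for 0 (against 0.352%) by edgeR's test, with 0 negative at an unadjusted p under 0.05 and 0 by DESeq2, and the median over all genes was 0.21. The 3 were Hoxb8 (1.31 ± 0.29 SE, adjusted p = 0.0027), Hoxb5 (1.13 ± 0.35 SE, adjusted p = 0.036) and Hoxb7 (0.73 ± 0.21 SE, adjusted p = 0.022). With the libraries of 1 replicate number left out, 0 (replicate 4) or 1 member was called, and without vas deferens replicate 4 at 21 months alone, a choice made after seeing the data, the calls were Hoxa7 and Hoxb8. Scaling by library size alone left 0 and DESeq2 1.

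**Figure D5:**
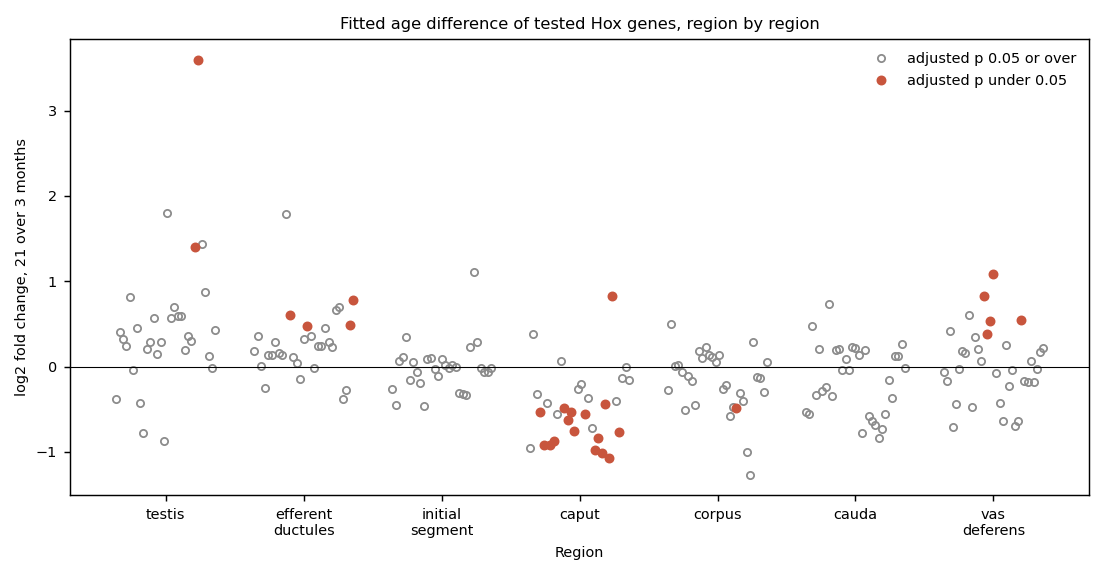
Fitted log2 fold change, 21 over 3 months, of the tested Hox genes in each region (1 gene is not shown), with genes of a region in alphabetical order from left to right and filled red points for an adjusted p under 0.05 (4 libraries per age). The 15 filled points below 0 in the caput, from -1.07 to -0.44, lie in a region where 5.05% of all genes were lower, and the 5 above 0 in the vas deferens in one where 11.4% of all genes were higher. Further filled points above 0 are 4 in the efferent ductules, 2 in the testis and 1 in the caput.

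Other genes of the Hox system were read from 4 lists. Of the 9 TALE partner genes of the PBX, MEIS and PKNOX families, 6 were higher and 2 lower in the vas deferens than in the initial segment at 3 months (median log2 fold change 1.01, against 0 over all genes), and 7 and 2 at 21 months (1.10). Over all genes 19.6% were called higher and 23.7% lower at 3 months and 19.3% and 19.2% at 21 months, so the share of lower TALE genes was near that of all genes. Meis2 was at 16.5 ± 2.70 CPM in initial segment, 65.2 ± 8.03 CPM in cauda and 144 ± 11.9 CPM in vas deferens (mean ± SD, n = 4), with a log2 fold change between the ends of 3.20 ± 0.14 (SE). Meis1 was at 18.0 ± 2.20 CPM, 51.1 ± 6.49 CPM and 98.0 ± 3.02 CPM (2.53 ± 0.13), so both MEIS genes were high where the posterior Hox genes and the smooth muscle markers were high. Pbx3 went the other way, at 37.3 ± 5.48 CPM in the initial segment (-2.13 ± 0.13). With age in the caput 3 of the 9 TALE genes were called, all lower, Meis1 (-0.91 ± 0.16 SE, adjusted p = 0.0062), Meis2 (-0.72 ± 0.16 SE, adjusted p = 0.018) and Pknox2, in the region where 15 Hox genes and 5.05% of all genes were lower, and the TALE median was -0.36 against -0.01 over all genes. Elsewhere with age the calls were Pbx3 higher and Meis1 lower in the corpus, and 1 higher (Meis3) and 1 lower in the vas deferens. Of all genes 1.5% were higher and 1.47% lower in the corpus, and 11.4% were higher and 8.47% lower in the vas deferens. In the vas deferens both shares of the TALE genes were thus near those of all genes.

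Of 20 chromatin regulators that keep Hox genes on or off (Polycomb, Trithorax and related genes), 3 were higher and 10 lower in the vas deferens than in the initial segment at 3 months (median log2 fold change -0.25, against 0 over all genes), and 2 and 5 at 21 months, where the median was 0.08, against 0 again, beside the same shares of all genes. With age 5 were called in the caput, all lower and with Ezh2, Kdm6b, Men1 and Pcgf2 among them (median -0.26, against -0.01 over all genes, of which 5.05% were lower), and 8 were higher and 2 lower in the vas deferens (median 0.15, against 0.02), where 11.4% of all genes were higher and 8.47% lower. The share of lower regulators there was near that of all genes. In the efferent ductules 2 regulators were lower with age, and in the initial segment 1 was higher and 1 lower, with Ezh2 lower in both. Of all genes 2.98% were lower in the efferent ductules, and 3.35% were higher and 3.01% lower in the initial segment, where the regulators' shares were near those of all genes. Of 18 retinoic acid genes, the pathway that sets Hox boundaries in the embryo, 10 were called between corpus and cauda at 3 months, all higher in the cauda (median 0.82, against 0 over all genes, of which 13.2% were higher), and 1 was higher and 7 lower in the vas deferens than in the cauda (median -0.44, against -0.03 over all genes, of which 15.1% were higher and 21.3% lower). At 21 months these numbers were 10 higher and 2 lower (median 0.65) and 3 higher and 3 lower (median -0.01), against 0 over all genes in both. Of all genes 13.8% were higher and 13.1% lower in the cauda than in the corpus at that age, and 16.6% and 18.5% in the vas deferens than in the cauda. The list's share of lower genes at the first step and both its shares at the second were thus near those of all genes. With age 4 were called in the efferent ductules (Aldh1a2, Aldh1a3 and Dhrs3 among them) and 4 in the vas deferens (Crabp2, Rara and Rarg among them), all higher, where 4.00% and 11.4% of all genes were higher, with list medians of 0.41 and 0.09 against -0.04 and 0.02 over all genes. In the caput 1 was higher and 3 were lower with age, Dhrs3 and Rarg among the lower, in the initial segment 1 was higher (Aldh1a2) and in the corpus 1 was lower. Of all genes 3.09% were higher and 5.05% lower in the caput, 3.35% higher in the initial segment and 1.47% lower in the corpus. Of 8 Evx, Cdx and ParaHox genes, relatives of the Hox genes, only Cdx2 and Evx1 had enough counts to test between regions, and both were lower in the corpus than in the caput at both ages. Evx1 was higher with age in the caput, at 0.777 ± 0.573 CPM and 4.73 ± 1.80 CPM (2.63 ± 0.45 SE, adjusted p = 0.0056), where 15 Hox genes were lower, and in the initial segment, at 0.386 ± 0.305 CPM and 1.45 ± 0.630 CPM (2.03 ± 0.48 SE, adjusted p = 0.022).

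Other genes inside the clusters reached levels of their own. Gm53, a non-coding gene of HoxB, was at 99.9 ± 10.02 CPM in the efferent ductules at 3 months, and Hoxd3os1, an antisense gene of HoxD, was at 61.6 ± 3.10 CPM in the testis at 21 months. In HoxA the most expressed one, 5730596B20Rik, which is annotated as protein-coding, was at 12.2 ± 0.526 CPM in the initial segment at 21 months, and in HoxC the 2 most expressed, Mir615 and Mir196a-2, stayed under 1 CPM. Because Hoxb3 shares 52.9% of its exon bases with Hoxb3os on the other strand and Hoxd4 52.3% with same-strand genes, their levels are less certain than those of Hoxb6, Hoxb8, Hoxa10 or Hoxa13.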

How the data were processed

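Total RNA of 56 libraries, 4 in each of 14 groups of region and age, was prepared with a stranded total RNA kit and sequenced. The authors deposited 1 table of raw read counts per gene, and the submitters' processing notes name cutadapt, HISAT2, HTSeq and the mm10 build. Their versions, the counting mode and the strand setting were not given in the sources used here, so reads of overlapping and antisense genes may be mixed. Total RNA libraries hold nuclear and ribosomal RNA, and a gene rich in such reads lowers the share left to all others, which TMM scaling offsets in part. Symbols of 53274 of 53379 gene identifiers, exon lengths and exon overlaps came from GENCODE M21, and promoter windows from RefSeq.

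The deposited counts were tested with edgeR 4.0.16 (quasi-likelihood F test, TMM factors) in R 4.3.3. Regional comparisons were fitted on the 28 libraries of one age and age comparisons on the 8 libraries of one region, with genes of at least 10 counts in the fit and Benjamini-Hochberg adjustment over all of them. A standard error was taken as the log2 fold change over the square root of F. Folds against a group without counts used a floor of 3 counts over its 4 libraries, and exact 95% intervals on ratios of counts cover counting error only. DESeq2 1.42.0, other scalings, other filters, a replicate block and the omission of libraries were alternatives. Levels and figures used Python 3.11.15, numpy 2.4.6, pandas 2.3.3, scipy 1.17.1 and matplotlib 3.10.9.

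The members, the marker and pathway lists and the tests were chosen with earlier results of these data known. Any member could be named. Values per library were given for the 3 highest members per kilobase of a group and the 3 with the largest change in each direction among those past the threshold at 1 CPM or more, and further members were added where a result turned on them. Other genes came from the lists or were the 2 most expressed non-members of a cluster. No 2 libraries of the same group agreed within sampling noise, and libraries of different groups were not compared in this way. The test was run on simulated counts before use. One member, which was kept in all fits, counts and sums, and some genes of the lists are not reported here by name.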

Additional observations from a re-analysis of the deposited data

Results flagged for a closer look

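In 269 groups of 4 libraries, 14 had 1 library far from the other 3, a gap that Dixon's criterion would give by chance in about 5% of groups. The number flagged was near that share, and the 14 are listed as a description. In cauda replicate 3 at 3 months, Hoxb8 was low (71.9 CPM against 141 to 148 CPM in the others), as was Hoxd8 (61.2 CPM against 86.0 to 87.9 CPM). In cauda replicate 2 at 21 months, Hoxb6 was low (54.5 CPM against 112 to 119.9 CPM) and Hoxd3 high (12.3 CPM against 9.16 to 9.60 CPM). In the efferent ductules at 3 months, Hoxa7 was low in replicate 1 (27.6 CPM against 28.9 to 29.1 CPM), Hoxc4 high in replicate 2 (13.9 CPM against 11.99 to 12.1 CPM) and Hoxd8 high in replicate 3 (92.6 CPM against 79.1 to 80.1 CPM). In the initial segment at 3 months, Hoxa4 was high in replicate 4 (4.52 CPM against 2.71 to 2.99 CPM), Hoxa7 low in replicate 1 (8.499 CPM against 13.3 to 14.2 CPM), Hoxb9 low in replicate 4 (84.2 CPM against 99.2 to 102 CPM) and Hoxd8 high in replicate 2 (197 CPM against 174 to 177 CPM). In the caput at 21 months, Hoxb8 was low in replicate 2 (110.0 CPM against 119 to 121 CPM). In the corpus, Hoxd3 was high in replicate 3 at 3 months (10.2 CPM against 9.28 to 9.40 CPM) and Hoxb5 low in replicate 3 at 21 months (29.5 CPM against 36.03 to 36.4 CPM). The age difference of 3 HoxB genes was larger in the vas deferens than in the initial segment, by 1.31 for Hoxb8, 1.13 for Hoxb5 and 0.73 for Hoxb7 on the log2 scale, with adjusted p of 0.0027, 0.036 and 0.022 in edgeR's quasi-likelihood test, where the median over all genes was 0.21. The 3 are 8.11% of the 37 members, near the 5.94% of all genes, and 0 were called with scaling by library size alone, 1 with DESeq2 size factors and 0 to 1 with a replicate number left out. In the vas deferens Hoxb5 and Hoxb8 were higher at 21 months in 4 of 4 libraries than in any at 3 months, while in the initial segment Hoxb8 differed by -0.02 ± 0.08 (SE) on the log2 scale.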

How the results depend on the processing

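Over the alternatives of the tool, scaling, filter, call rule, block and libraries, 590 counts of called members and shares stayed within 1.5 times, or within 1 SD, of the reported value, and 56 moved. Of the refitted fold changes of named members, 558 kept their direction and side of the threshold, 63 kept the direction without passing and 0 reversed. Between regions, 2 totals of called members moved by over 1.5 times: vas deferens against cauda at 3 months had 14 calls in place of 23 with library size alone, and cauda against corpus at 21 months had 7 to 9 in place of 11 with the libraries of 1 replicate number left out. By direction, library size alone gave 6 lower in place of 15 for vas deferens against cauda at 3 months and 5 in place of 8 at 21 months, and for cauda against corpus 2 lower in place of 4 at 3 months and 13 higher in place of 8 at 21 months. Without replicate 2 the first of these had 9 lower at 3 months, and without replicate 3 at 21 months it had 7 higher in place of 11, cauda against corpus 5 in place of 8 and caput against initial segment 3 in place of 6. Without cauda replicate 3 at 3 months the cauda steps had 13 and 22 calls, without efferent ductule replicates 2 and 3 at 21 months the first 2 steps had 28 and 20, and without vas deferens replicate 4 at 21 months its comparisons had 16 and 27. These omissions were chosen after seeing the data.

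The age counts were less stable. In the testis (2 calls) DESeq2, filterByExpr and the fit of all 56 libraries gave 1 each, and leaving out a library 1 to 2. In the efferent ductules (4) library size alone gave 0, an unadjusted p under 0.05 with a 1.5-fold change 2, leaving out a library 0 to 4, and leaving out replicates 2 and 3 at 21 months 10. In the caput (16) library size alone gave 0, all 56 libraries 9 and leaving out a library 8 to 16. In the corpus (1) DESeq2 and no filter gave 4 each, while DESeq2 size factors, library size alone, a table without Gm42418 and all 56 libraries gave 0 each, and leaving out a library 0 to 1. In the cauda (0) the unadjusted rule gave 5, DESeq2 3, all 56 libraries 3 and leaving out a library 0 to 1. In the vas deferens (5) leaving out a library gave 2 to 6. For the difference of age effects (3) the unadjusted rule gave 5, DESeq2, DESeq2 size factors, filterByExpr and no filter 1 each, library size alone 0, leaving out a replicate number 0 to 1, and leaving out vas deferens replicate 4 at 21 months 2. Library size alone brought the all-gene median for age to -0.38 in efferent ductules and -0.17 in corpus and that of initial segment against efferent ductules at 3 months to -0.44, and DESeq2 size factors brought it to -0.49 (3 months) and -0.55 (21 months) between testis and efferent ductules. Apart from these shifts and the smaller numbers of libraries, the cause was not tested.

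With the replicate number as a block, 0 efferent ductule and 3 vas deferens calls were left for age, 14 in the caput, and no other count moved by over 1.5 times. The numbers did not pair the samples: same-numbered libraries had mean correlations of their deviations between -0.17 and 0.20, in no comparison were all 4 over 0.1, and only in cauda against corpus at 3 months did all 8 libraries correlate best with their own number, a hint from the data and not from the design. Limited to members of at least 1 CPM, the share of groups 11 to 13 was 0.245% in the testis and 0.0185% in the efferent ductules at 3 months. Members under about 1 CPM rest on few counts, so their differences were often not detectable at this depth.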
